A study of Danio rerio with 18 samples.

Results

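The genes described here are those of the self-eating and acid-digestion machinery of the cell: the autophagy genes, the cathepsin proteases and the subunits of the vacuolar ATPase (V-ATPase), the proton pump of the lysosome. Members were every gene of the deposited tables whose symbol starts with ATG and a digit, CTS and a letter, or ATP6V, or with LAMP1, LAMP2, SQSTM1, ULK1, ULK2, BECN1, TFEB or TFE3, ignoring case. There were 70 such genes among 32520: 24 autophagy genes, 18 cathepsins, 13 genes of the cytosolic V1 sector and 9 of the membrane V0 sector of the pump, 3 genes of lysosome membrane glycoproteins and 3 of transcription factors. Of these, 59 were expressed highly enough to be tested in the 12 transgenic libraries and 61 in all 15 libraries.

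Ventricles of adult zebrafish were profiled by mRNA sequencing in 5 groups of 3 libraries. All groups carried cmcl2:Gal4-ERT2, the driver that the sample titles spell cmlc2, a tamoxifen-switched Gal4 that acts in cardiomyocytes, so the transgene was induced in heart muscle cells while RNA came from the whole ventricle. The line with UAS:RFP, a fluorescent control, and the line with UAS:GFP-HRAS, which makes the oncoprotein HRAS with a fluorescent tag, received 4 overnight pulses of 2.5 uM 4-hydroxytamoxifen (4-OHT) plus vehicle (0.05% DMSO) or the TOR kinase inhibitor rapamycin at 0.5 uM, during 16 days. The hearts taken 7 days after cryoinjury (7 dpci), a freezing injury, carried the driver alone and had no drug, 4-OHT or vehicle. The labels name no allele, age or sex, and do not say whether a library was 1 fish or a pool, so each p-value measures the spread between libraries, which may be technical. The 3 uninjured samples of the driver line were not analysed here.

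Autophagy encloses cytoplasm in a double membrane that fuses with the lysosome. It starts with the ULK kinase complex, which TOR holds off when nutrients are plentiful. It goes on through the Beclin lipid kinase complex and through ATG9 and ATG2, which act in the growth of the membrane. Conjugation enzymes tether LC3-type proteins to that membrane. The V-ATPase acidifies the lysosome, cathepsins digest the contents there, and TFEB and TFE3, which TOR keeps in the cytosol, are known in mammals to switch on many of these genes. In heart muscle the pathway clears worn mitochondria and proteins, and macrophages, which live by engulfing and digesting, are also rich in lysosomal proteases.

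Library totals ran from 15861618 to 20003711 counts. Levels are counts per 1000000 (CPM) scaled with trimmed-mean factors, and they were compared only within a gene because transcript lengths were not used. Cardiomyocyte markers were high in every library, with a summed level of 50910 to 63080 CPM in GFP-HRAS DMSO and 85620 to 146400 CPM in the other groups. The third GFP-HRAS rapamycin library stood apart from the other two of its group on the first principal component, at -11.9 against 44.5 and 32.8, on the side of the RFP libraries at -60.6 to -48.7. It was also the library of its group nearest to the RFP DMSO mean for 38 of the 59 members. The share over all genes was not counted, so this cannot be called particular to the members. The summed level of 43 macrophage and leukocyte markers was 250 to 619 CPM in RFP DMSO, 299 to 325 CPM in RFP rapamycin, 4230 to 6340 CPM in GFP-HRAS DMSO, 329 to 764 CPM in GFP-HRAS rapamycin and 1687 to 1789 CPM in 7 dpci, and the first RFP DMSO library held the 619. In tissue RNA, fewer cells of a type and less RNA per cell cannot be told apart.

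**Figure D1:**
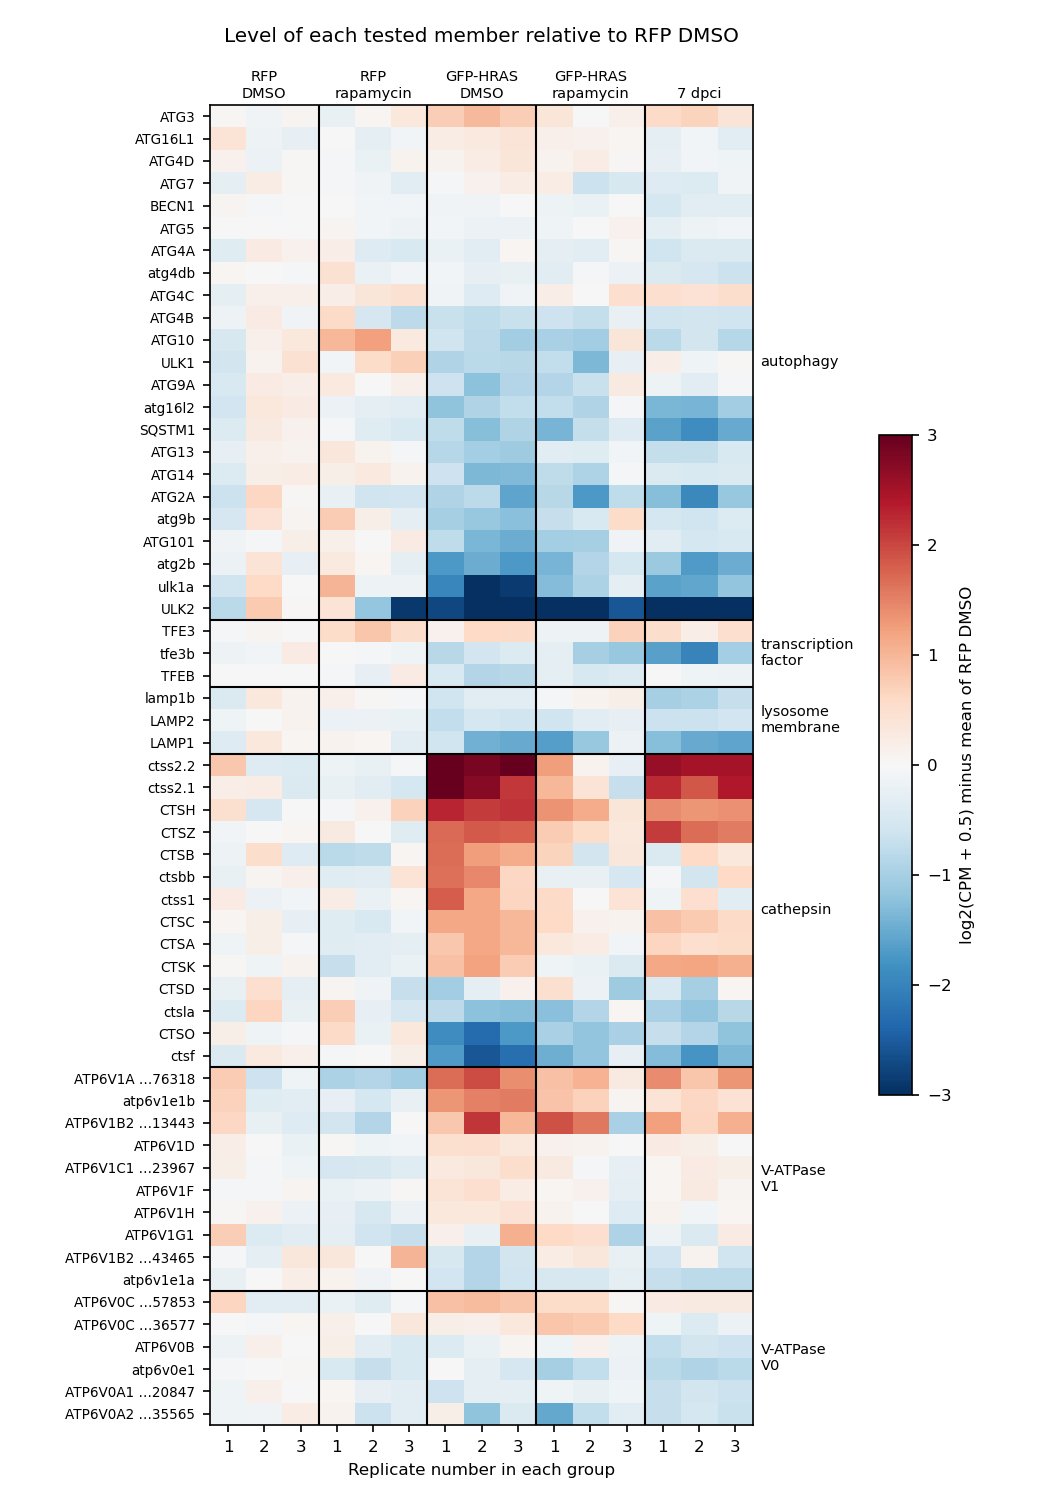
Level of the 59 tested members in each of the 15 libraries, as log2(CPM + 0.5) minus the mean of the 3 RFP DMSO libraries; rows are grouped by role and ordered within a role by the mean in GFP-HRAS DMSO, and genes that share a symbol carry the last digits of their identifier. Most cathepsins are red and many autophagy genes blue in GFP-HRAS DMSO, and the colours are paler in GFP-HRAS rapamycin, palest for many autophagy genes in replicate 3 of that group.

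Rapamycin was first compared with DMSO within the GFP-HRAS line. Most cathepsins were lower with the drug. Of the autophagy starters, ulk1a and ATG13 were higher, while ULK1, ULK2 and BECN1 were not called. Here 12.1% of all 16044 tested genes were called at an adjusted p under 0.05 (edgeR quasi-likelihood test, Benjamini-Hochberg), 5.83% higher and 6.3% lower. Of the 59 members, 5 were higher and 9 lower, and the median log2 fold change was 0.02 for the members and 0.01 for all genes. Among the 14 tested cathepsins, 8 fell, 2 rose and 4 were not called, with a median log2 fold change of -1.16. The called share was 71.4% of the cathepsins, against 13% of the 23 tested autophagy genes, 16.7% of the 6 V0 genes and 0 of the 10 V1 genes, 3 lysosome membrane genes and 3 transcription factor genes. The share of the autophagy genes lay near the 12.1% of all genes.

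Among the cathepsins called under all 12 alternative settings of this comparison, the S-like genes ctss2.2 and ctss2.1 had the largest fold changes. The other S-like gene tested, ctss1, had -1.58 ± 0.58 and was not called (adjusted p 0.0932, edgeR). ctss2.2 (ENSDARG00000013771), whose mammalian relative cathepsin S trims antigen-presenting proteins in immune cells, was at 117, 76.0 and 85.5 CPM in the GFP-HRAS DMSO libraries and at 24.7, 10.9 and 8.43 CPM with rapamycin. All 3 treated libraries lay below all 3 vehicle libraries, and replicates 2 and 3 with the drug lay within the 7.498 to 18.01 CPM of RFP DMSO. The 18.01 CPM was that of the first RFP DMSO library, and every treated library lay above the other RFP DMSO libraries. The log2 fold change was -2.66 ± 0.44 (SE) at an adjusted p of 0.00721 (edgeR). Its relative ctss2.1 (ENSDARG00000074656) fell from 64.3, 52.0 and 34.1 CPM to 15.4, 10.1 and 4.40 CPM, again without overlap, a log2 fold change of -2.33 ± 0.40 at an adjusted p of 0.00829 (edgeR). The annotation used for names places ctsk, ctss2.1 and ctss2.2 as successive protein-coding genes. Reads shared between close relatives such as these could be split either way by the counting, so their separate values are uncertain.

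CTSK (ENSDARG00000040251), the protease with which mammalian osteoclasts digest collagen, was at 106, 134 and 97.7 CPM in GFP-HRAS DMSO and at 52.6, 49.6 and 42.4 CPM with rapamycin. CTSZ (ENSDARG00000043081), a carboxypeptidase, was at 70.1, 76.7 and 74.8 CPM and at 36.6, 31.5 and 26.6 CPM. Neither gene overlapped between the groups, and CTSK with rapamycin lay below the 52.2 to 61.9 CPM of RFP DMSO in 2 of 3 libraries, while CTSZ stayed above its 20.2 to 22.1 CPM in all 3. Both had a log2 fold change of -1.23, with an SE of 0.18 and an adjusted p of 0.00572 (edgeR). CTSA (ENSDARG00000098114), the serine carboxypeptidase that shields other lysosomal enzymes, fell by 0.84 ± 0.16 on the log2 scale (adjusted p 0.0119, edgeR). These 5 genes, ctss2.2, ctss2.1, CTSK, CTSZ and CTSA, were called under all 12 alternative settings of this comparison.

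The other cathepsin calls were less steady. ctsbb (ENSDARG00000101051), a cathepsin B relative at low level, was at 2.78, 2.33 and 1.12 CPM and at 0.399, 0.400 and 0.244 CPM with rapamycin (log2 fold change -2.55 ± 0.53, adjusted p 0.0149, edgeR). CTSC (ENSDARG00000101334), which activates the granule proteases of immune cells, fell by 0.82 ± 0.19 (adjusted p 0.0205, edgeR), and CTSH (ENSDARG00000041108), an aminopeptidase, fell by 1.19 ± 0.31 (adjusted p 0.0302, edgeR). Against these, ctsf (ENSDARG00000063095) and CTSO (ENSDARG00000052855), papain-type proteases, rose. ctsf was at 73.4, 40.2 and 49.3 CPM and at 86.0, 105.5 and 202 CPM with rapamycin, without overlap, the third treated library being the highest (log2 fold change 1.27 ± 0.33, adjusted p 0.0321, edgeR). CTSO was at 0.684, 0.368 and 0.796 CPM and at 1.70, 1.40 and 1.71 CPM (1.37 ± 0.35, adjusted p 0.0298, edgeR). The most counted cathepsin in RFP DMSO, ctsla, was at 274, 199.6 and 194 CPM and at 199, 256 and 489 CPM, so the groups overlapped and no change was called (0.49 ± 0.41, adjusted p 0.457, edgeR).

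The fall of the cathepsins went with a fall of leukocyte markers. In the same comparison 21 of 31 tested macrophage and leukocyte markers were called lower and none higher, with a median log2 fold change of -2.18, and 1 of the 43 listed genes was at 0 in all GFP-HRAS DMSO libraries and 2 in all GFP-HRAS rapamycin libraries. Of 10 tested lymphocyte markers, from 17 listed, 5 were lower and 0 higher (median -2.78). The filter can keep a marker through the group where it is high. Fibroblast and matrix markers were 0 higher and 1 lower of 21 (median -0.86), neutrophil markers 0 higher and 1 lower of 8, and 0 of 8 erythrocyte markers were called. Endothelial markers went the other way (9 of 18 tested higher, 0 lower), as did cardiomyocyte markers (8 of 26 higher, 0 lower). The part of these shifts in the values of the members was not tested.

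**Figure D2:**
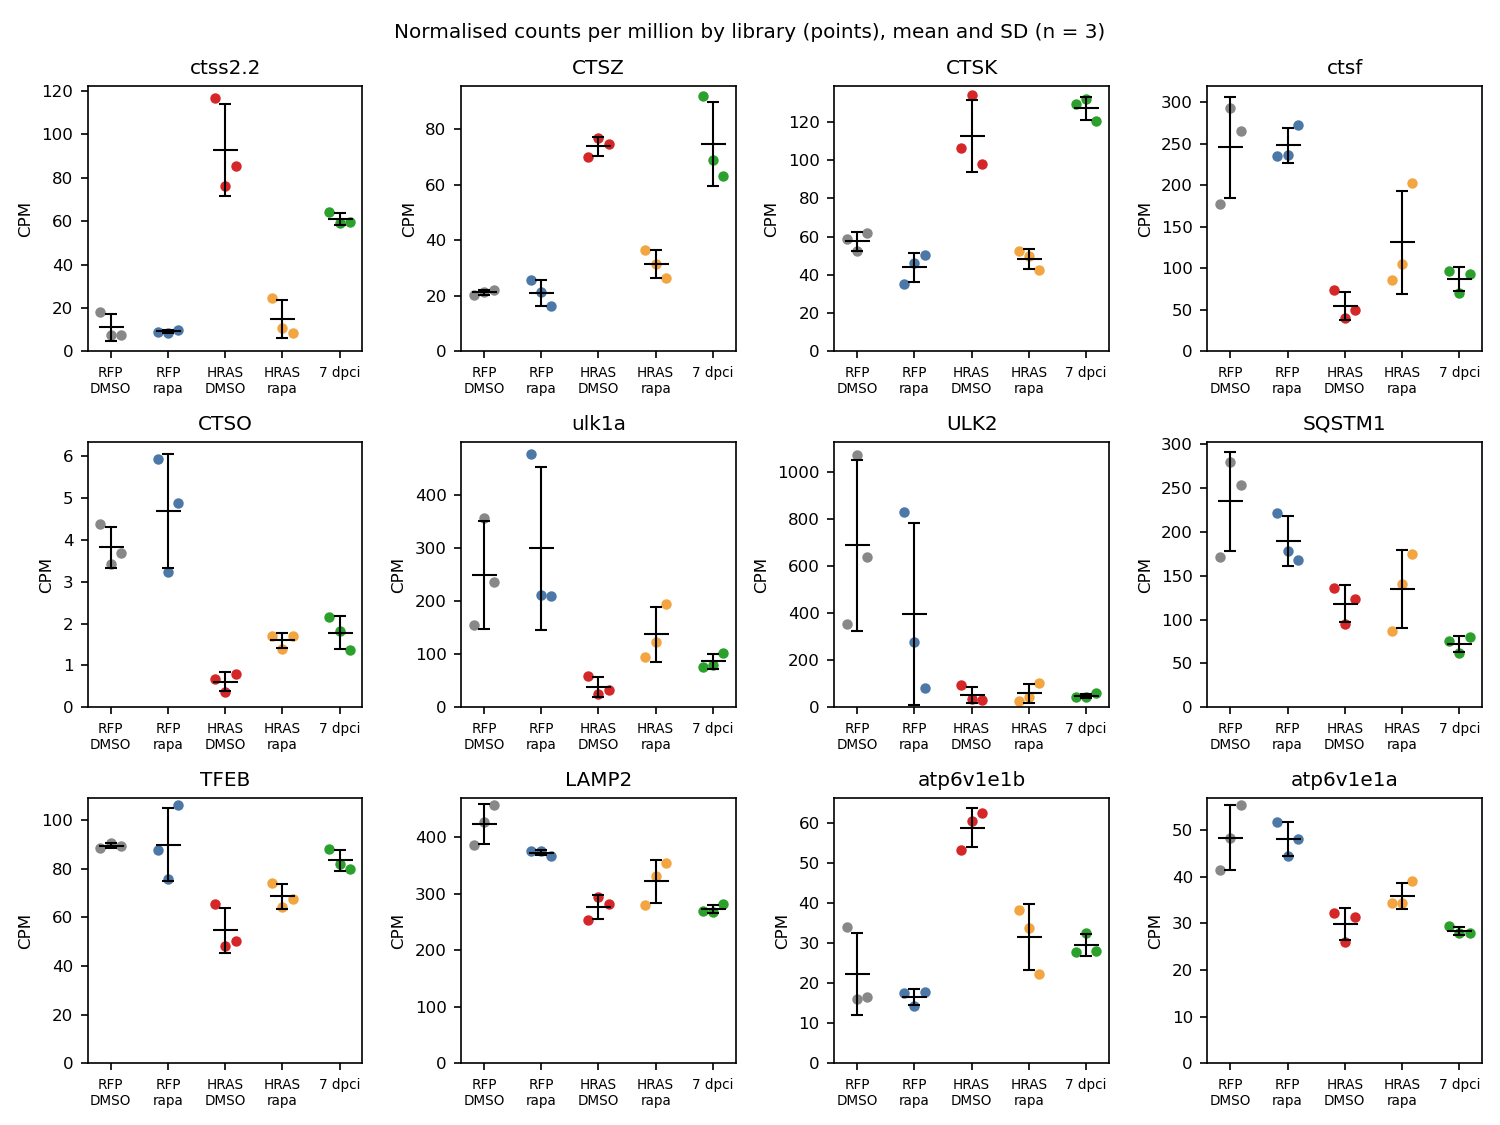
CPM of 12 members in each library (points) with the mean and SD of the 3 libraries of each group (black bars), each panel on its own linear axis from 0; rapa stands for rapamycin. The ctss2.2, CTSZ and CTSK panels show GFP-HRAS DMSO and 7 dpci above the other groups, and the ulk1a, ULK2 and ctsf panels show both below RFP DMSO, with GFP-HRAS rapamycin overlapping 7 dpci.

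Among the starters of autophagy, ulk1a (ENSDARG00000062518), a ULK kinase, was at 59.8, 24.7 and 31.8 CPM in GFP-HRAS DMSO and at 94.4, 122 and 195 CPM with rapamycin. No treated library fell within the vehicle range, and the third came within the 155 to 356 CPM of RFP DMSO. The log2 fold change was 1.82 ± 0.46 at an adjusted p of 0.0287 (edgeR). ATG13 (ENSDARG00000036040), the scaffold that joins the ULK kinase to its partners, was at 49.3, 43.8 and 42.0 CPM and at 70.0, 69.7 and 83.8 CPM, without overlap (0.72 ± 0.17, adjusted p 0.0219, edgeR). The kinase genes ULK1 (0.14 ± 0.32, adjusted p 0.818) and ULK2 (0.18 ± 0.77, adjusted p 0.902, edgeR) were not called, nor was the lipid kinase partner BECN1 (-0.07 ± 0.14, adjusted p 0.792) or the cargo receptor SQSTM1 (0.19 ± 0.27, adjusted p 0.688, edgeR).

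A pair of called members ranked below the 12 with the smallest adjusted p and was named after its values were seen. ATG3, the enzyme that hands LC3-type proteins to lipid, fell by 0.65 ± 0.18 (adjusted p 0.0382, edgeR). ATP6V0C (ENSDARG00000036577), a gene of the proton-carrying ring, was at 34.8, 34.6 and 38.6 CPM and at 55.9, 54.1 and 46.9 CPM with rapamycin, higher than in any library of the other groups (0.53 ± 0.14, adjusted p 0.0347, edgeR). The other ATP6V0C gene (ENSDARG00000057853) had a log2 fold change of -0.49 ± 0.26 and was not called (adjusted p 0.231, edgeR). Of the 10 V1 genes, 8 had a log2 fold change below 0 and 7 had an unadjusted p under 0.05, a threshold passed by 4755 of the 16044 tested genes and 27 of the 59 members, and the smallest adjusted p was 0.0657, for atp6v1e1b (edgeR). The glycoproteins LAMP1, LAMP2 and lamp1b lay between 0.21 and 0.50 (smallest adjusted p 0.103, edgeR), and TFEB (0.33 ± 0.17), TFE3 (-0.27 ± 0.26) and tfe3b (-0.17 ± 0.28) were not called (smallest adjusted p 0.225, edgeR).

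Counted without a test, 31 of the 59 members, or 52.5%, had all GFP-HRAS rapamycin libraries on one side of all GFP-HRAS DMSO libraries, 12 higher and 19 lower, against 34.6% of all tested genes, 16.5% higher and 18.1% lower. Among cathepsins it was 2 higher and 10 lower of 14. Scaled by library totals alone, which moved the median of all genes to -0.44, the called members were 1 higher and 21 lower, and all 5 rises but that of ulk1a lost their call. The rises also rested on few libraries: 0 members were called higher without the second GFP-HRAS DMSO library, 1 without the third, 0 without the second GFP-HRAS rapamycin library and 1 without the third. The falls numbered 5 without the second GFP-HRAS DMSO library and 5 without the third GFP-HRAS rapamycin library.

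The same drug was compared with DMSO in the RFP line. No gene was called, 0% of 16044, while 787 had an unadjusted p under 0.05 and DESeq2 called 13 higher and 13 lower, none of them a member. No member was called, and 4 of 59 had an unadjusted p under 0.05 by edgeR and 5 by DESeq2. The smallest p belonged to ATP6V1A (ENSDARG00000076318), the catalytic subunit of the pump, at 1.76, 0.367 and 0.717 CPM with DMSO and 0.192, 0.223 and 0.151 CPM with rapamycin. All treated libraries were lower, the first DMSO library was highest, and the log2 fold change was -2.26 ± 0.61 (adjusted p 0.932, edgeR). The counts were few, 27, 6 and 13 with DMSO and 3, 4 and 2 with rapamycin. Next came ATP6V1C1 (ENSDARG00000023967) at -0.47 ± 0.18, TFE3 at 0.68 ± 0.26 and the V0 gene atp6v0e1 at -0.54 ± 0.22, each with an adjusted p of 0.994 (edgeR). TFE3 was at 6.52, 7.15 and 6.67 CPM with DMSO and 10.2, 12.5 and 10.01 CPM with rapamycin, without overlap. In this line 13.6% of the members, 2 higher and 6 lower, were without overlap, against 11.1% of all genes, 5.82% higher and 5.24% lower.

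Genes called in GFP-HRAS were also read in the RFP line, where none was called. Of those that fell most in GFP-HRAS, ctss2.1 had a log2 fold change of -0.42 ± 0.40 here and ctsbb -0.13 ± 0.54. ctss2.2 was at 18.01, 7.58 and 7.498 CPM with DMSO and 9.08, 8.65 and 9.71 CPM with rapamycin (-0.27 ± 0.42), and CTSZ at 20.2, 21.5 and 22.1 CPM and 25.6, 21.3 and 16.4 CPM (-0.01 ± 0.18). Both groups of ctss2.2 and of CTSZ overlapped. CTSK was at 58.7, 52.2 and 61.9 CPM and 35.3, 46.2 and 50.2 CPM, all treated libraries lower, with no call (-0.39 ± 0.18, adjusted p 0.994, edgeR). ulk1a, which rose in GFP-HRAS, was at 155, 356 and 235 CPM and 476, 212 and 209.6 CPM, also overlapping (0.27 ± 0.45).

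The difference between the lines in the response to rapamycin was tested as an interaction. It was called for 8 of all genes, 0.0499%, with 0.00623% above 0 and 0.0436% below 0, and for 0 of the 59 members by edgeR. An unadjusted p under 0.05 was found for 13 of the 59 members and 2303 of the 16044 genes. CTSZ had the smallest adjusted p of the members, 0.102 (interaction -1.22 ± 0.26 on the log2 scale, edgeR), and ctss2.2 had -2.39 ± 0.60 at an adjusted p of 0.136 (edgeR). DESeq2 called 3 members, CTSZ, ctss2.2 and ctss2.1, with a stronger fall in the GFP-HRAS line, and leaving out the first RFP DMSO library gave 1 call by edgeR, ctss2.2. With a replicate block edgeR also called 1 member lower. A different response of the members in the lines therefore depended on the tool, the block and the libraries kept.

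**Figure D3:**
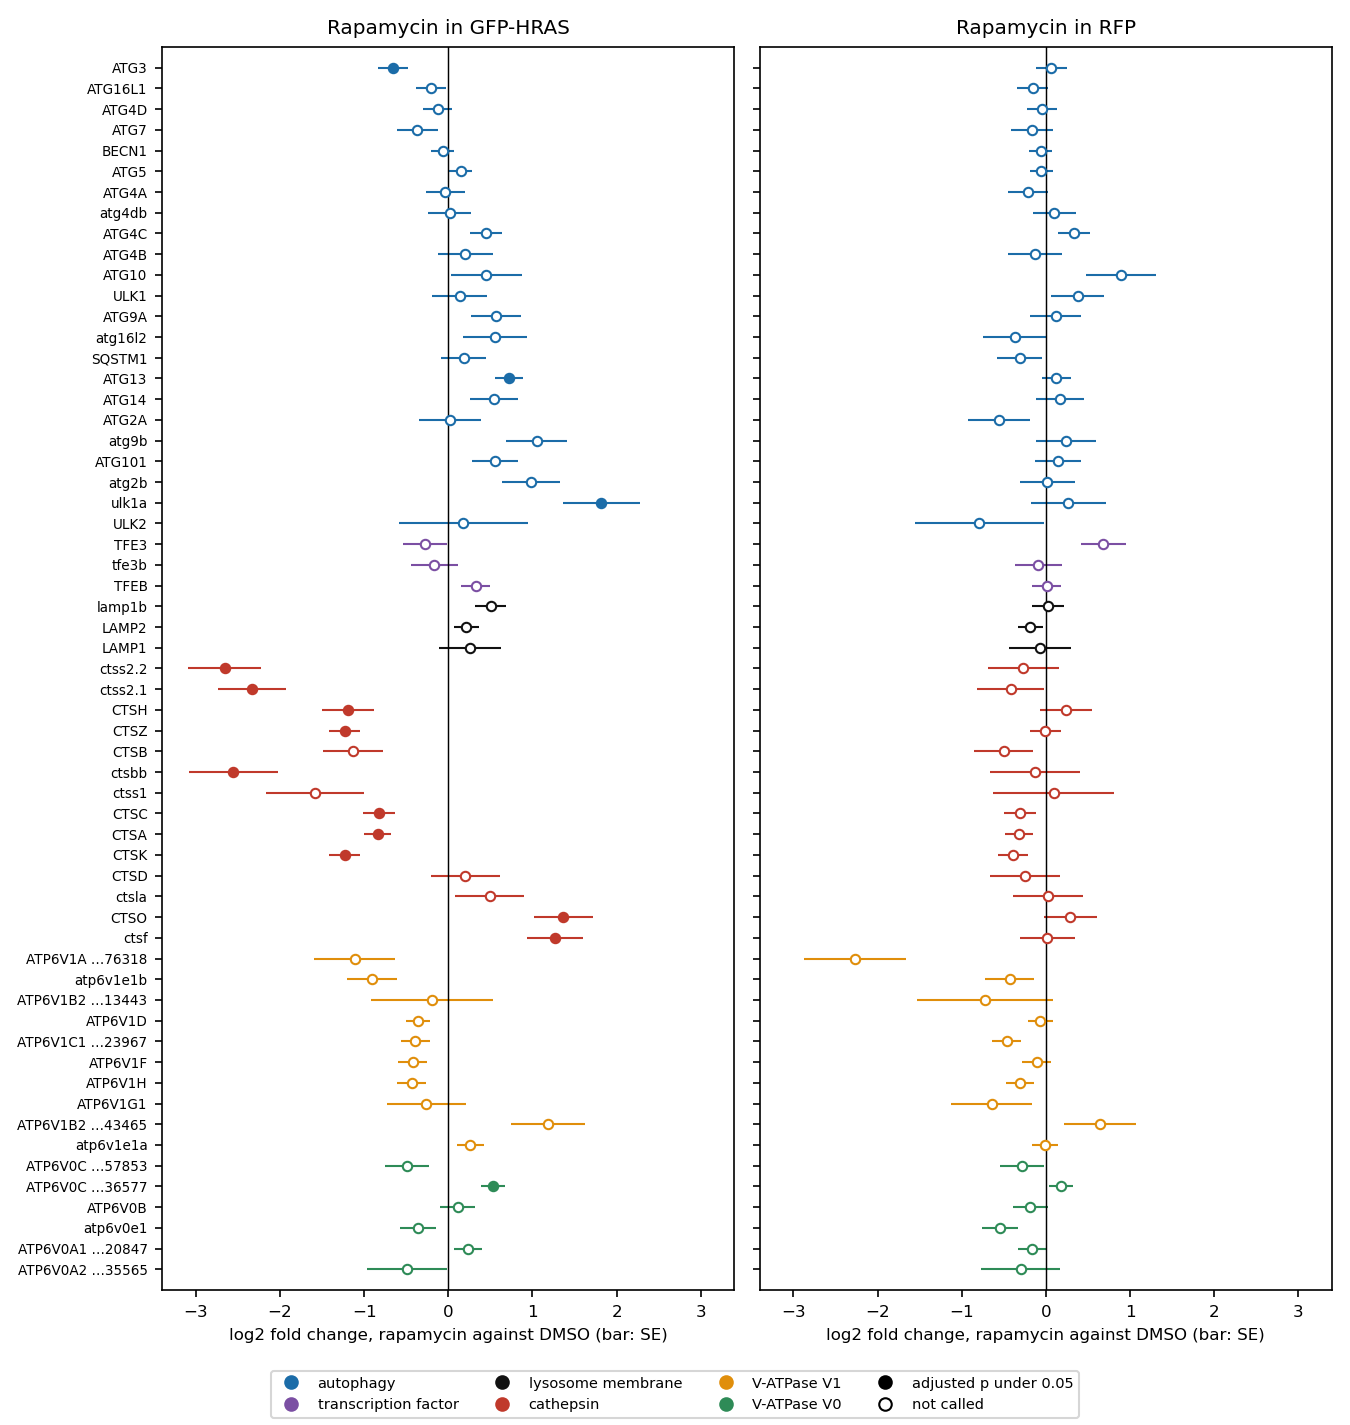
Log2 fold change of rapamycin against DMSO with its SE (bars) for the 59 tested members, in the GFP-HRAS line on the left and the RFP line on the right; filled points passed an adjusted p under 0.05 (edgeR). The left panel holds 14 filled points, 10 of them cathepsins, and the right panel holds 0.

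GFP-HRAS was compared with RFP under DMSO, the vehicle given during the same 16 days as rapamycin in the other groups. This comparison shares the GFP-HRAS DMSO libraries with the rapamycin comparison of that line, so opposite signs in them are not independent. HRAS hearts had more RNA of most cathepsins and less of many autophagy genes. Of all genes 47.5% were called, 24.9% higher and 22.6% lower, and of the members 15 were higher and 19 lower, 57.6%. Cathepsins were 10 higher and 3 lower of 14 (median log2 fold change 1.22), and autophagy genes 1 higher and 12 lower of 23 (median -0.92), with a median of 0.02 over all genes. Under library totals alone, which moved the median of all genes to 0.49, the members were 23 higher and 7 lower. Lower calls numbered 12 without the second RFP DMSO library and 12 without the second GFP-HRAS DMSO library.

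The cathepsins that rose most were ctss2.2 (3.08 ± 0.44, adjusted p 0.000531), ctss2.1 (2.73 ± 0.41, adjusted p 0.000613), ctss1 (2.54 ± 0.63, adjusted p 0.00697) and CTSH (2.16 ± 0.32, adjusted p 0.000561, edgeR). CTSH was at 29.8, 14.6 and 21.3 CPM in RFP DMSO and at 104, 90.9 and 96.6 CPM in GFP-HRAS DMSO, a wide gap. ctss1 had few counts, 43, 26 and 15 in GFP-HRAS DMSO and 5, 2 and 3 in RFP DMSO. It had at most 11 in any other library, so it passed the filter largely through the group where it was high. CTSZ rose by 1.804 ± 0.19 (adjusted p 0.000158) and ctsbb by 1.89 ± 0.50 (adjusted p 0.0103, edgeR). The opposite was seen for CTSO, at 4.37, 3.42 and 3.69 CPM in RFP DMSO (-2.62 ± 0.35, adjusted p 0.000398), and for ctsf, at 178, 293 and 265 CPM (-2.17 ± 0.34, adjusted p 0.000753, edgeR). ctsla was also called lower (-1.15 ± 0.42, adjusted p 0.0398, edgeR), a call lost under library totals (adjusted p 0.163), with a replicate block (0.0683), and without library 2 or 3 of GFP-HRAS DMSO (0.11 each) or of RFP DMSO (0.173 and 0.052). Of 31 leukocyte markers 25 rose and 1 fell here (median log2 fold change 2.87), and of 21 fibroblast and matrix markers 17 rose and 1 fell (median 2.87). Of 10 tested lymphocyte markers, from 17 listed, 7 rose and 1 fell (median 5.04). The filter can keep a marker through the group where it is high, so that median describes markers selected in part by these libraries. The summed level of the 17 was 610, 222 and 111 CPM in GFP-HRAS DMSO, the first library being far the highest, and 44.7 to 53.3 CPM in RFP DMSO. Of 18 endothelial markers 1 rose and 13 fell, of 26 cardiomyocyte markers 5 rose and 9 fell, and of 8 erythrocyte markers 1 rose and 6 fell. The part of these shifts in the members' values was not tested.

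Of the autophagy genes, ULK2 (ENSDARG00000097205), a kinase of the starting complex, had the largest fold change. It was at 353, 1074 and 637 CPM in RFP DMSO and at 92.9, 33.3 and 30.1 CPM in GFP-HRAS DMSO. The groups did not overlap, although RFP DMSO itself spanned a wide range, and RFP rapamycin was at 830.1, 279 and 82.7 CPM. The log2 fold change was -3.72 ± 0.85 at an adjusted p of 0.00483 (edgeR). ulk1a fell by 2.67 ± 0.47 (adjusted p 0.00134), ULK1 by 0.92 ± 0.32 (adjusted p 0.035) and atg2b, a lipid carrier to the growing membrane, by 2.04 ± 0.34 (adjusted p 0.00101, edgeR). SQSTM1, whose protein carries cargo to autophagosomes and is digested with it, was at 172, 280 and 253 CPM in RFP DMSO and 136, 94.6 and 124 CPM in GFP-HRAS DMSO, without overlap (-0.99 ± 0.27, adjusted p 0.0118, edgeR). BECN1 was at 20.2, 18.5 and 19.0 CPM and 17.9, 17.9 and 19.4 CPM, overlapping (-0.06 ± 0.14, adjusted p 0.753, edgeR). ATG3 rose (0.84 ± 0.18, adjusted p 0.00353, edgeR).

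Among the regulators, TFEB was at 88.5, 90.5 and 89.3 CPM in RFP DMSO and 65.4, 48.2 and 50.4 CPM in GFP-HRAS DMSO (-0.70 ± 0.17, adjusted p 0.00632, edgeR). The TFE3 genes were not called (TFE3 0.48 ± 0.26, adjusted p 0.152, and tfe3b -0.66 ± 0.28, adjusted p 0.0699, edgeR). LAMP2, a lysosome coat protein, was at 386, 427 and 457 CPM and 253, 294 and 281 CPM, without overlap (-0.61 ± 0.15, adjusted p 0.00623, edgeR). LAMP1 fell by 1.15 ± 0.37 (adjusted p 0.0249), and lamp1b was not called (-0.46 ± 0.19, adjusted p 0.0674, edgeR). The falls of TFEB, SQSTM1, LAMP1, LAMP2 and ULK1 were lost when libraries were scaled by their totals alone. Those of ULK1 and LAMP1 were also lost without library 2 or 3 of either group (adjusted p 0.0578 to 0.14), that of ULK1 also without the first GFP-HRAS DMSO library (0.0779), and that of SQSTM1 without the second GFP-HRAS DMSO library (adjusted p 0.0516, edgeR).

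Of the pump genes, 3 of 10 V1 genes were called higher and 1 lower, and 1 of 6 V0 genes higher, below the 47.5% called among all genes. The stalk subunit E pair differed in direction. atp6v1e1b, a gene of the stalk subunit E, was at 34.1, 16.1 and 16.5 CPM in RFP DMSO and 53.3, 60.5 and 62.6 CPM in GFP-HRAS DMSO (1.41 ± 0.30, adjusted p 0.00321, edgeR). Its paralogue atp6v1e1a was at 41.4, 48.4 and 55.4 CPM and 32.2, 26.0 and 31.3 CPM (-0.69 ± 0.16, adjusted p 0.00485, edgeR). Both were without overlap and in opposite directions, and the fall of atp6v1e1a lost its call under library totals (adjusted p 0.281, edgeR). ATP6V1A (ENSDARG00000076318) was at 1.76, 0.367 and 0.717 CPM and 3.79, 4.71 and 2.99 CPM (2.02 ± 0.50, adjusted p 0.00707, edgeR). Its counts were 27, 6 and 13 in RFP DMSO and 83, 115 and 75 in GFP-HRAS DMSO, and it passed the filter largely through the GFP-HRAS libraries. ATP6V0C (ENSDARG00000057853), the most counted V0 gene in RFP DMSO, was at 163, 81.9 and 83.6 CPM and 192, 201 and 185 CPM (0.82 ± 0.26, adjusted p 0.0231, edgeR), a call lost without library 2 or 3 of either group (adjusted p 0.055 to 0.0976). For atp6v1e1b, ATP6V1A and this ATP6V0C the first RFP DMSO library was the highest of its group. That library also had the highest leukocyte sum of the group, and any part of leukocyte RNA in these values was not tested.

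Under rapamycin, GFP-HRAS against RFP called 18.1% of all genes, 10.4% higher and 7.71% lower. Of the 59 members 5 were higher and 5 lower, 16.9% together and so near the share of all genes. ULK1 (-1.165 ± 0.325, adjusted p 0.0321) and ULK2 (-2.75 ± 0.82, adjusted p 0.0396, edgeR) were called lower, ULK2 with overlapping libraries. Neither call held under all 12 alternatives. ulk1a (-1.125 ± 0.45, adjusted p 0.0993, edgeR), BECN1, SQSTM1 and the LAMP, TFEB and TFE3 genes were not called. ATP6V1A (ENSDARG00000076318), singled out after its values were seen, was the only member of the 10 called under all 12 alternatives (3.17 ± 0.60, adjusted p 0.00775, edgeR), at 1.94, 2.27 and 1.1 CPM against 0.192, 0.223 and 0.151 CPM. Its counts were few, 39, 34 and 18 in GFP-HRAS rapamycin and 3, 4 and 2 in RFP rapamycin. It passed the filter largely through the GFP-HRAS libraries, where it was high. Without the third GFP-HRAS rapamycin library 10 members were higher and 12 lower. Leaving out any other library of these groups gave 1 to 3 higher and 0 to 4 lower.

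**Figure D4:**
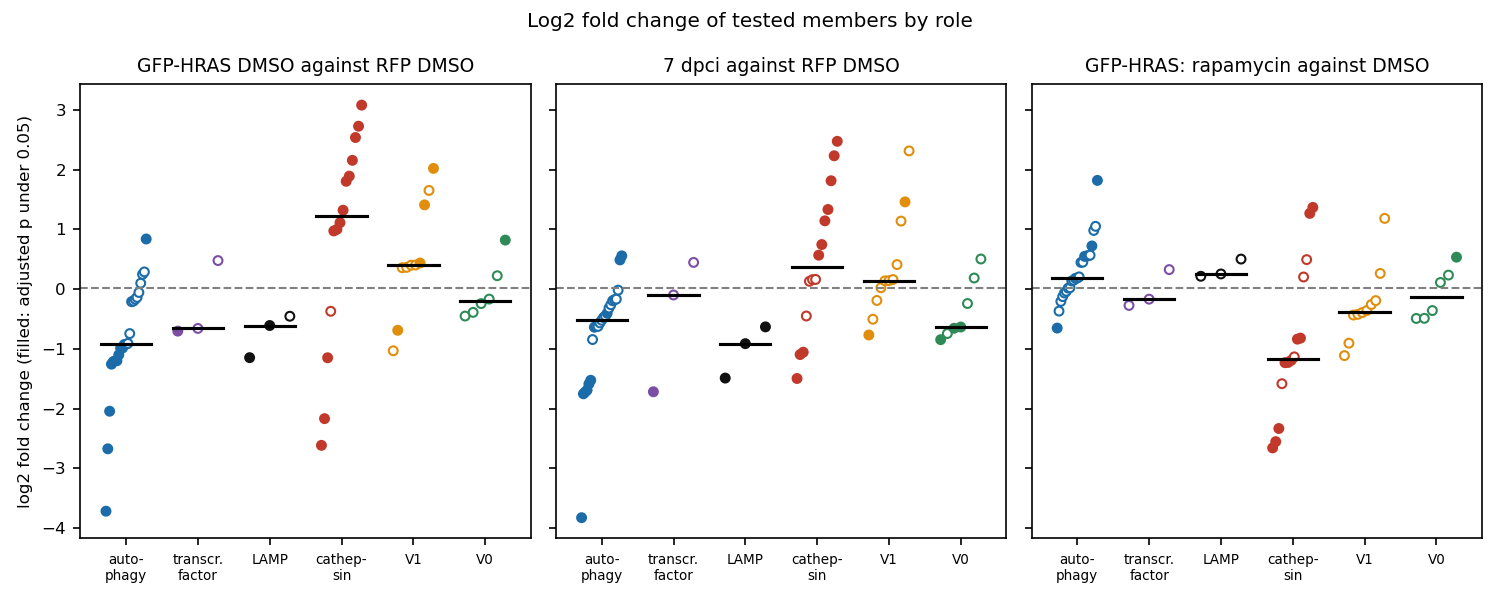
Log2 fold change of each tested member (points, filled where the adjusted p was under 0.05) by role, with the median of the role (black line) and of all genes (dashed line), for GFP-HRAS DMSO against RFP DMSO, 7 dpci against RFP DMSO, and rapamycin against DMSO in GFP-HRAS. Cathepsins have medians of 1.22, 0.36 and -1.16 in the panels from left to right, and autophagy genes -0.92, -0.52 and 0.19.

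The hearts at 7 dpci were set beside RFP DMSO and GFP-HRAS DMSO. They came from a separate table, carried no UAS transgene and had no 4-OHT or vehicle, and none of these can be told apart from the injury. Both comparisons share libraries with those above. Against RFP DMSO, 36.4% of all 16421 tested genes were called, 18.8% higher and 17.7% lower, and of 61 members 10 were higher and 19 lower. Cathepsins were 7 higher and 3 lower of 14, autophagy genes 2 higher and 8 lower of 23, and all 3 lysosome membrane genes were lower. In 7 dpci 25 of 35 tested leukocyte markers and 18 of 21 fibroblast and matrix markers were higher than in RFP DMSO, with 0 and 1 lower. Lymphocyte markers were 3 higher and 2 lower of 11, neutrophil markers 2 and 1 of 9, and endothelial markers 1 and 7 of 18. Cardiomyocyte markers were 4 higher and 4 lower of 26, and erythrocyte markers 4 and 0 of 8. The part of these shifts in the members' values was not tested.

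ctss2.2 was at 64.4, 59.2 and 59.7 CPM at 7 dpci (2.47 ± 0.40 against RFP DMSO, adjusted p 0.000737) and ctss2.1 at 37.2, 28.3 and 41.6 CPM (2.23 ± 0.38, adjusted p 0.00093, edgeR). CTSZ was at 91.8, 68.8 and 63.3 CPM (1.81 ± 0.19, adjusted p 0.000111), and CTSK at 129, 132 and 120.2 CPM (1.14 ± 0.17, adjusted p 0.000435, edgeR). These 4 genes were higher in every 7 dpci library than in any RFP library. ULK2 at 43.8, 42.3 and 59.3 CPM was low again (-3.83 ± 0.79, adjusted p 0.00294), as were atg16l2 (-1.75 ± 0.38, adjusted p 0.00359), a member of the LC3 ligase family, and atg2b (-1.72 ± 0.34, adjusted p 0.00207, edgeR).

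SQSTM1 had its lowest mean at 7 dpci, 75.2, 62.5 and 80.4 CPM. All 3 libraries were below every library of the other groups, and the log2 fold change against RFP DMSO was -1.69 ± 0.26 (adjusted p 0.000555, edgeR). The coat protein genes LAMP1 (-1.49 ± 0.35, adjusted p 0.00555), lamp1b (-0.91 ± 0.18, adjusted p 0.00212) and LAMP2 (-0.63 ± 0.13, adjusted p 0.00266, edgeR) were lower too. BECN1 was at 13.2, 15.4 and 15.03 CPM, below all RFP DMSO libraries (-0.40 ± 0.12, adjusted p 0.0228, edgeR). Of the transcription factors, tfe3b was at 1.82, 1.29 and 3.01 CPM against 5.94, 6.23 and 7.99 CPM (-1.72 ± 0.32, adjusted p 0.00176, edgeR). TFEB (-0.10 ± 0.15, adjusted p 0.637) and TFE3 (0.45 ± 0.24, adjusted p 0.167, edgeR) were not called, nor was ULK1 (-0.02 ± 0.30, adjusted p 0.971), whereas ulk1a was lower (-1.53 ± 0.42, adjusted p 0.0136, edgeR). The call of BECN1 was lost under library totals, without the expression filter, and without library 1 or 3 of 7 dpci or of RFP DMSO (adjusted p 0.0518 to 0.143, edgeR). The call of ulk1a was lost without library 1 or 2 of 7 dpci or library 2 of RFP DMSO (adjusted p 0.0508 to 0.0692, edgeR).

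Against GFP-HRAS DMSO, 28.8% of genes were called, 13.3% higher and 15.5% lower, and 5 members were higher and 10 lower at 7 dpci. In the same comparison 4 of 35 leukocyte markers were higher and 12 lower, and 10 of 21 fibroblast and matrix markers higher and 1 lower. Of 11 tested lymphocyte markers, from 17 listed, 0 were higher and 8 lower. The filter can keep a marker through the group where it is high. The summed lymphocyte level in GFP-HRAS DMSO was 610, 222 and 111 CPM, the first library being far the highest. Endothelial markers were 9 higher and 0 lower of 18, cardiomyocyte markers 11 higher and 5 lower of 26, and erythrocyte markers 7 higher and 0 lower of 8. Their part in the members' values was not tested. The largest differences were those of ctss1 (-2.38 ± 0.68, adjusted p 0.0207), ctsbb (-1.75 ± 0.56, adjusted p 0.0317) and CTSO (1.53 ± 0.33, adjusted p 0.00557, edgeR). At 7 dpci the counts were few, 3, 9 and 1 for ctss1 and 11, 4 and 20 for ctsbb. ctss1 passed the filter largely through GFP-HRAS DMSO, the group it is compared with here, so its rank among the differences carries little weight. CTSB, the main cathepsin B gene by symbol, was at 65.4, 134 and 110.3 CPM at 7 dpci and 284, 212 and 194 CPM in GFP-HRAS DMSO, without overlap (-1.15 ± 0.37, adjusted p 0.0313, edgeR). tfe3b (-1.05 ± 0.32, adjusted p 0.0267) and atp6v1e1b (-0.99 ± 0.27, adjusted p 0.0158, edgeR) were lower as well, while TFEB (0.61 ± 0.15, adjusted p 0.0108) and ULK1 (0.91 ± 0.30, adjusted p 0.0362, edgeR) were higher. ctss2.2, CTSZ and CTSK were not called between these groups (log2 fold changes -0.60 ± 0.37, 0.01 ± 0.18 and 0.17 ± 0.16). Only 1 of the 15 calls held under all 12 alternatives, and leaving out any single library gave 3 to 8 members higher and 1 to 4 lower.

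The rest of the pathway was followed with 6 lists of related genes, read against the share of all genes called in each comparison. Counts of these lists and of the marker lists come from the main setting only. They were not rerun under the alternatives, where the balance of higher and lower member calls shifted with the scaling. For rapamycin in GFP-HRAS that share was 12.1%, 5.83% higher and 6.3% lower. In GFP-HRAS, rapamycin raised 5 and lowered 0 of 23 tested autophagy receptor genes, among them retreg1 (1.84 ± 0.36, adjusted p 0.0127), which marks endoplasmic reticulum for autophagy, BNIP3L (1.11 ± 0.25, adjusted p 0.0201), which marks mitochondria, and CALCOCO1 (ENSDARG00000036695, 1.195 ± 0.28, adjusted p 0.0228, edgeR). Of 34 other autophagy machinery genes 2 rose and 0 fell, 5.88% and so no more than among all genes. They were the LC3-type genes MAP1LC3A (1.36 ± 0.33, adjusted p 0.0248) and GABARAPL2 (0.96 ± 0.24, adjusted p 0.0293, edgeR). Of 46 other lysosomal enzyme genes 9 fell and 0 rose, led by the carboxypeptidase SCPEP1 (-1.61 ± 0.22, adjusted p 0.00415), the lipid-binding activator GM2A (-1.40 ± 0.22, adjusted p 0.0071) and the mannosidase MAN2B1 (-0.73 ± 0.15, adjusted p 0.0135, edgeR). Of 44 lysosome membrane and trafficking genes 1 rose and 6 fell, led by laptm5 (-2.50 ± 0.37, adjusted p 0.00554), grna, a progranulin gene (-2.84 ± 0.46, adjusted p 0.0071), and the cholesterol carrier NPC2 (-2.76 ± 0.51, adjusted p 0.0102, edgeR), and laptm5 also stands in the leukocyte list. Of 36 genes that control TFEB, TOR and the lysosome 1 was called, TFEC (-1.97 ± 0.47, adjusted p 0.0236, edgeR), and of 5 cystatins, the inhibitors of cathepsins, 0. In the RFP line 0 genes of any of the 6 lists were called, with 0 to 3 per list at an unadjusted p under 0.05.

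In GFP-HRAS against RFP under DMSO, where 47.5% of all genes were called, 24.9% higher and 22.6% lower, the called share was 52.2% of the receptor, 55.9% of the machinery, 54.3% of the enzyme, 52.3% of the membrane and 58.3% of the control genes. In either direction together these shares lie near that of all genes. By direction, 0 receptor genes rose and 12 of 23 fell, with PINK1 (-1.85 ± 0.26, adjusted p 5e-04), the kinase that labels damaged mitochondria, CALCOCO1 (ENSDARG00000016391, -2.34 ± 0.34, adjusted p 0.000561) and BNIP3L (-1.75 ± 0.26, adjusted p 0.00057, edgeR) in front. Genes of the machinery list were 3 higher and 16 lower of 34, led by gabarapb (-1.52 ± 0.23, adjusted p 0.000689), rubcn (-1.36 ± 0.23, adjusted p 0.00105) and MAP1LC3A (-1.87 ± 0.33, adjusted p 0.00136, edgeR). That list was not split into genes that promote autophagy and genes that restrain it. Its falls therefore give no direction for the process. Lysosomal enzymes were 21 higher and 4 lower of 46, with SCPEP1 (1.96 ± 0.22, adjusted p 0.000237), the hyaluronidase HYAL2 (3.60 ± 0.44, adjusted p 0.000321) and the nuclease dnase2 (3.23 ± 0.41, adjusted p 0.00035, edgeR). Membrane and trafficking genes were 13 higher and 10 lower of 44, in each direction near the share of all genes. They were led by NPC2 (4.67 ± 0.57, adjusted p 0.000314), laptm5 (2.60 ± 0.37, adjusted p 0.000489) and grna (2.92 ± 0.46, adjusted p 0.000767, edgeR). Control genes were 6 higher and 15 lower of 36, led by the TOR partner akt1s1 (-1.79 ± 0.32, adjusted p 0.00136), FOXO1 (-2.89 ± 0.52, adjusted p 0.00147) and PPARGC1A (-1.71 ± 0.32, adjusted p 0.00185, edgeR). The cystatin genes cst14a.2 (1.22 ± 0.30, adjusted p 0.00683) and cst14a.1 (1.48 ± 0.55, adjusted p 0.0429, edgeR) rose. At 7 dpci against RFP DMSO, where 18.8% of all genes were higher and 17.7% lower, 36.4% together, the receptor list was 1 higher and 12 lower of 23, the machinery list 1 and 14 of 34, the enzymes 18 and 3 of 46, the membrane genes 7 and 11 of 45, the control genes 3 and 10 of 37 and the cystatins 0 of 5. The called shares of the membrane genes, 40%, and of the control genes, 35.1%, were near that of all genes.

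**Figure D5:**
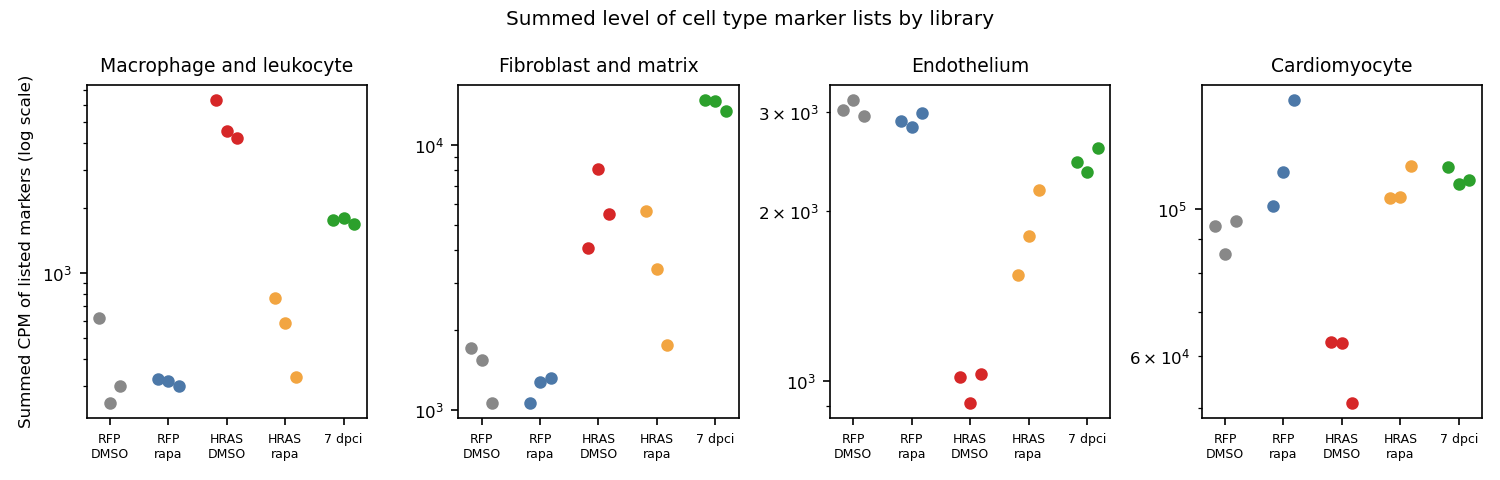
Summed CPM of marker genes of leukocytes, fibroblasts and matrix, endothelium and cardiomyocytes in each of the 15 libraries, on a log scale that differs between panels. Leukocyte sums lie at 4230 to 6340 CPM in GFP-HRAS DMSO, 329 to 764 CPM in GFP-HRAS rapamycin and 1687 to 1789 CPM in 7 dpci, against 250 to 619 CPM in the RFP libraries.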

How the data were processed

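Whole-ventricle mRNA libraries were sequenced; the submitters' processing notes list GRCz11, featureCounts 1.6.0, UMI-tools 1.1.1 and HISAT2 2.1.0. Which annotation was used, and whether strand was, is not given in the sources used here. Raw counts were deposited by the authors as whole numbers with no normalization. UR in the column names was taken to mean UAS:RFP. A table of gene names gave 29201 of 32520 identifiers a symbol; zebrafish copies can share a symbol, and antisense, overlapping or near-identical genes may share reads. No coordinates are given, because the annotation used is of another build.

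The test was edgeR 4.0.16 under R 4.3.3 (glmQLFTest after glmQLFit, trimmed-mean scaling, the filterByExpr filter) over 12 transgenic libraries, or over all 15 for comparisons with 7 dpci, without a replicate block. P-values were adjusted over all tested genes and called under 0.05. The absolute log2 fold change over the root of F gave the SE. Alternatives were other scalings, no filter, DESeq2 1.42.0, only the libraries compared, a replicate block and each library left out. Same-numbered libraries did not deviate together (correlations -0.333 to 0.164), so numbers were not taken as pairs. No libraries were duplicates. The fits were tested on simulated counts. Genes named with values were called members by adjusted p (12 per rapamycin comparison, or the 4 smallest p) or by fold change (12 for HRAS in DMSO, 6 for each 7 dpci comparison), the most counted member of each role in RFP DMSO, and the ULK, BECN1, SQSTM1, LAMP and TFE genes. Members and lists were chosen with earlier results of these data known.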

Additional observations from a re-analysis of the deposited data

How the results depend on the processing

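No called direction reversed under any alternative. With library totals alone, the called members were 1 higher and 21 lower for rapamycin in GFP-HRAS, 23 higher and 7 lower for HRAS in DMSO, and 1 higher and 27 lower for 7 dpci against GFP-HRAS DMSO; the medians of all genes moved to -0.44, 0.49 and -0.39. With only the libraries compared, members higher were 0 for rapamycin in GFP-HRAS, 1 for HRAS in rapamycin (and 1 lower) and 10 for 7 dpci against GFP-HRAS DMSO. DESeq2 gave 3 members lower in the interaction, 8 higher and 8 lower for HRAS in rapamycin, and 16 lower for 7 dpci against GFP-HRAS DMSO. Without the expression filter, HRAS in rapamycin gave 3 higher and 3 lower and 7 dpci against GFP-HRAS DMSO 5 lower. With a replicate block, rapamycin in GFP-HRAS gave 2 higher and 8 lower, the interaction 1 lower, and HRAS in rapamycin 2 higher and 2 lower; the numbers do not pair the samples. Leaving out each library gave 0 to 6 higher and 5 to 10 lower for rapamycin in GFP-HRAS, 0 to 1 lower for the interaction, 12 to 16 higher and 12 to 20 lower for HRAS in DMSO, 1 to 10 higher and 0 to 12 lower for HRAS in rapamycin, 7 to 11 higher and 15 to 19 lower for 7 dpci against RFP DMSO, and 3 to 8 higher and 1 to 4 lower for 7 dpci against GFP-HRAS DMSO. The 12 lower calls of HRAS in DMSO came without the second RFP DMSO or the second GFP-HRAS DMSO library. Rapamycin in RFP stayed at 0 members under every alternative run. Under all settings 5 of 14 calls of rapamycin in GFP-HRAS held, 19 of 34 of HRAS in DMSO, 1 of 10 of HRAS in rapamycin, 21 of 29 of 7 dpci against RFP DMSO and 1 of 15 of 7 dpci against GFP-HRAS DMSO. The cause of these shifts was not tested. With 3 libraries a group, small changes of low-count members could not be resolved. A planned promoter motif search was not run.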

Other observations

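Several members had almost no counts in any group. ATG12, the ubiquitin-like partner that ATG5 is joined to, had 0 to 3 counts per library and 13 in all 15 libraries together. A second ATP6V1A gene (ENSDARG00000034534) had 0 to 1 counts per library and 2 in all, and ATP6V0D1 (ENSDARG00000069090), a gene of the pump's central stalk, had 4 to 18 per library and 145 in all. The cathepsin L relatives ctslb and ctslb.4 had 1 count each over the 15 libraries, ctsll had 11 and ctsl.1 had 67. The reason for these low counts was not tested.

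The groups with the highest and lowest means were also counted by role, without a test. These ranks were not counted over all genes, so they cannot be called particular to a role. GFP-HRAS DMSO had the highest mean for 8 of 14 tested cathepsins and 8 of 11 tested V1 genes, and RFP rapamycin had the lowest mean for 7 of those 14 cathepsins and 8 of those 11 V1 genes. None of these genes was called between RFP rapamycin and RFP DMSO. For autophagy genes the lowest mean lay in GFP-HRAS DMSO for 11 of 23 and in 7 dpci for another 11, and the highest in RFP rapamycin for 10 of 23. GFP-HRAS rapamycin was seldom at either end, with the highest mean for 5 and the lowest for 2 of the 61 tested members.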
